A study of Arabidopsis thaliana with 10 samples.

Results

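Xyloglucan endotransglucosylase/hydrolases, coded by the XTH genes, were followed at the transcript level along the Arabidopsis thaliana inflorescence stem. The members were the 33 loci numbered XTH1 to XTH33, taken by locus identifier. Of these, 31 had a row in the deposited tables and 23 reached 1 FPKM (fragments per kilobase, corrected for the depth of each library) in at least 1 library, out of 23615 genes listed and 18858 that reached that level. XTH1 (AT4G13080) and XTH2 (AT4G13090) were not analysed here. RNA came from plants labelled as an atx1 mutant and from wild-type Col (WT), kept on a 16 h light and 8 h dark cycle at 22 °C until stems stood 20 cm high. Segments were cut from the top, and RNA was sequenced from segment II (5 to 7 cm) of plants labelled atx1 and from segments I (0 to 3 cm), II (5 to 7 cm) and III (10 to 12 cm) of the wild type. ATX1 codes for an enzyme that methylates lysine 4 of histone H3. The atx1 allele is not given in the labels.

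Xyloglucan is the main hemicellulose of the primary wall in plants such as Arabidopsis, where it binds to and runs between cellulose microfibrils. XTH enzymes cut a xyloglucan chain and either join the new end to another chain, which is the endotransglucosylase reaction, or release it with water, which is the hydrolase reaction. They act in walls that are being loosened, extended or strengthened, and xyloglucan-modifying activity is also known in developing xylem and fibres. The family numbers follow the original phylogenetic groups, group I with XTH1 to XTH11, group II with XTH12 to XTH26 and group III with XTH27 to XTH33. Hydrolase activity is known above all for the XTH31 and XTH32 branch of group III.

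Each group was 1 library. Without replicates no comparison could be tested and no difference has an error, so the values describe these libraries only. Differences are on the log2(FPKM + 1) scale, which understates those of low genes, and higher and lower refer to differences of 2-fold or more, which is 1 on that scale, unless a value is given as within 2-fold. A value listed as 0 entered the counts and medians but has no fold of its own. The steps between low FPKM values put the depth at about 18600000 fragments in the library labelled atx1 II and 18800000 to 19800000 in the WT libraries. At that depth 1 fragment on 1 kb stood for about 0.05 FPKM, so members under 0.1 FPKM rest on 1 or a few fragments.

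The labelled tissue was compared with marker lists, which were chosen with earlier results of these data known. The 8 secondary wall markers of fibres and xylem, among them the cellulose synthase genes CESA4, CESA7 and CESA8, summed to 691.2 FPKM in the library labelled atx1 II, and to 179.0, 2955.6 and 3355.7 FPKM in WT I, II and III. The 5 markers of dividing cells summed to 15.9 FPKM in the library labelled atx1 II and to 105.2, 25.0 and 38.9 FPKM in WT I, II and III. The 5 epidermis markers summed to 292.8 FPKM there and to 582.6, 465.8 and 472.2 FPKM along the WT stem, and the 4 phloem markers to 259.7 and to 232.6, 366.6 and 334.8 FPKM. Most of each epidermis sum was CER6 alone, at 244.57 FPKM in the library labelled atx1 II and 440.44, 413.92 and 422.22 FPKM in WT I, II and III. The 5 flower organ markers summed to 2.6 FPKM and to 9.1, 3.0 and 2.2 FPKM, and 3 of them were listed at 0 in WT II and in WT III. Between WT II and WT I all 8 secondary wall markers were higher, all 5 markers of dividing cells and 3 of 5 epidermis markers were lower, and 1 of 4 phloem markers was higher. Of the 3 measured flower organ markers 1 was lower, PI, which reached 1 FPKM in WT I alone. Over all genes 9.88% were higher and 16.1% lower in that comparison. No marker of these lists passed 2-fold between WT III and WT II, where only 2.85% of all genes were higher and 2.35% lower. The part of these differences in the results below was not tested. In whole segments, fewer cells of a type and less RNA per cell cannot be told apart. ATX1 (AT2G31650) itself was at 21.76 FPKM in the library labelled atx1 II, against 4.02, 6.09 and 3.54 FPKM in WT I, II and III. It was thus higher than in WT II (1.68), as were 14.1% of all genes, and not lower. RNA per gene does not show whether the product works, and the allele is not given. The text therefore speaks of the library labelled atx1 II.

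Along the WT stem the summed level of the family fell with each segment, though within 2-fold, and its leading members changed. The sum of WT III was 0.656 times that of WT I. The 31 listed members summed to 2483.1 FPKM in WT I, 1962.7 in WT II and 1630.1 in WT III, or 0.352%, 0.283% and 0.238% of the FPKM of all genes. In WT I the leading members were XTH22 and XTH4, which made up 62.2% of the sum. In WT II and WT III they were XTH24 and XTH22, with 53.4% and 63.9%. Group I held 40.0% of the family's FPKM in WT I, 19.7% in WT II and 14.4% in WT III. Group II held 50.1%, 57.0% and 67.1%, and group III 9.89%, 23.4% and 18.5%. The library labelled atx1 II had a family sum of 1825.4 FPKM, against 1962.7 in WT II, with 6.42% from group I, against 19.7% in WT II.

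The same change showed in how many members were abundant. At least 10 FPKM was reached by 9 members in the library labelled atx1 II, and by 15, 12 and 10 members in WT I, II and III. At least 100 FPKM was reached by 3 members in the library labelled atx1 II, and by 6, 6 and 4 members in WT I, II and III. The median level of the 23 measured members was 2.62 FPKM in the library labelled atx1 II, against 32.1, 12.4 and 9.81 FPKM in WT I, II and III. Over all measured genes the median level was 12.4 FPKM there, against 11.1, 9.84 and 11.4 FPKM along the WT stem. The family sum thus came from fewer members in the library labelled atx1 II, where XTH24, XTH22 and XTH27 made up 86.4% of it, against 66.8% for the leading 3 members of WT II.

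**Figure D1:**
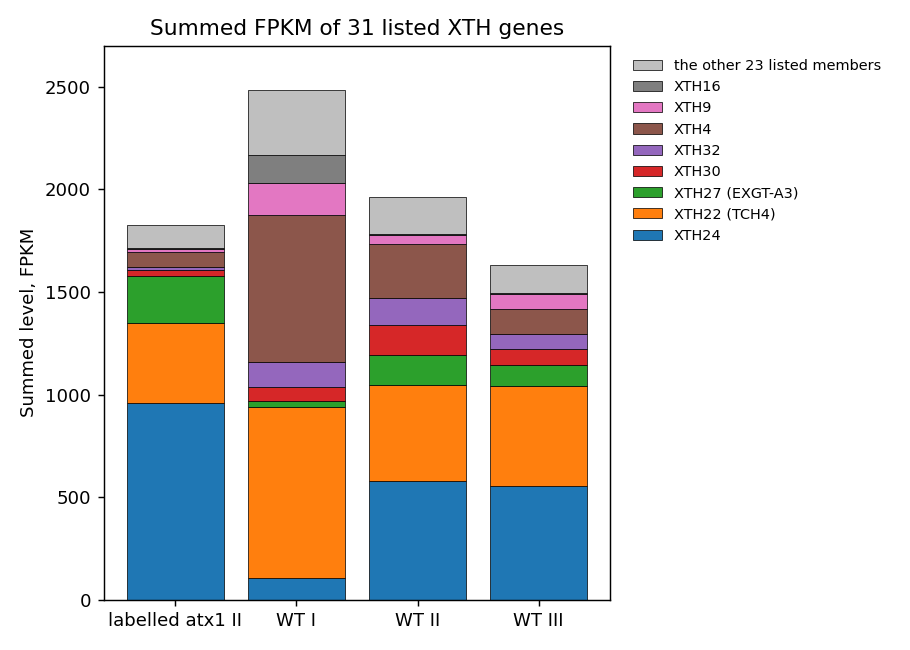
Stacked bars give the summed level in FPKM of the 31 listed XTH genes in each of the 4 RNA libraries, 1 library a bar, with 8 members shown by colour and the other 23 listed members in light grey. XTH4 was at 77.43 FPKM in the library labelled atx1 II and was lower with each WT segment, at 712.26, 262.95 and 126.15 FPKM in WT I, II and III, while XTH24 was at 959.01 FPKM in the library labelled atx1 II, against 580.14 in WT II.

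Lower in both WT II and WT III than in WT I were XTH4, XTH8, XTH9, XTH16 and XTH19, and higher in both were XTH24, XTH27 and XTH31. Between WT II and WT I, 5 of the 23 measured members were higher and 6 lower, with a median log2 difference of -0.29. Over all measured genes 9.88% were higher and 16.1% lower, with a median of -0.13. Between WT III and WT I, 4 members were higher and 9 lower (median -0.79), against 12.0% higher and 12.4% lower over all genes (median 0.01). In WT II relative to WT I, the groups had these counts. In group I none of 7 measured members was higher and 3 were lower (median -0.33), in group II 1 of 9 was higher and 3 lower (median -0.89), and in group III 4 of 7 were higher and none lower (median 1.01). XTH17, XTH25 and XTH29 reached 1 FPKM in 1 library each, WT I, the library labelled atx1 II and WT II, so their differences involving that library follow from the filter.

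Group I holds XTH4 (AT2G06850), one of the abundant members of growing tissue, which has also been linked to cell expansion in xylem. It had 712.26 FPKM in WT I, 262.95 in WT II and 126.15 in WT III, and was lower by at least 2-fold at each step, by -1.43 and -1.05 on the log2 scale. XTH9 (AT4G03210), known from shoot apices and linked to xylem together with XTH4, had 159.71 FPKM in WT I, 47.26 in WT II and 70.36 in WT III. Thus XTH9 was lowest in WT II, and both lower segments stayed below WT I. XTH6 (AT5G65730) was at 80.55, 63.87 and 24.56 FPKM, and its drop lay between WT II and WT III (-1.34), one step later than that of XTH8. XTH8 (AT1G11545) was at 33.6 FPKM in WT I but only 1.35 in WT II and 2.58 in WT III, a log2 difference of -3.88 for WT II over WT I.

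The remaining members of group I were low. XTH5 (AT5G13870) was at 1.78, 3.49 and 2.8 FPKM in WT I, II and III, with no 2-fold difference among them. XTH7 (AT4G37800) rose in order, at 1.97, 3.66 and 6.76 FPKM, and was higher in WT III than in WT I by 1.39. XTH10 (AT2G14620) was at 3.21, 2.76 and 1.42 FPKM, within 2-fold throughout on the log2(FPKM + 1) scale. As a plain ratio, WT I was 2.26 times WT III, and with a pseudocount of 0.1 that difference was called lower (-1.12). The members nearest to the 1 FPKM limit were XTH17, with 1.15 FPKM as its highest value, just inside, and XTH11 (AT3G48580), with 0.75 FPKM, just outside. XTH3 (AT3G25050), an enzyme shown to act on cellulose as well as xyloglucan, did not exceed 0.71 FPKM.

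Group II spans the most extreme contrasts of the family. XTH22 (AT5G57560, listed as TCH4), known as a gene quickly induced by touch and by brassinosteroid, was the leading member of WT I at 832.91 FPKM. It was at 467.51 FPKM in WT II and 487.59 in WT III, all within 2-fold, and its small difference between WT III and WT II of 0.06 turned to -0.15 when libraries were rescaled by the median of ratios. Another touch-induced gene, TCH3, picked after its values were seen, was at 910.87, 816.17 and 1018.87 FPKM in WT I, II and III. Of the 6 genes of the touch and early stress list, 0 passed 2-fold between WT II and WT I. Over all genes 9.88% were higher and 16.1% lower there, so most genes also stayed within 2-fold. Between WT III and WT II 0 of the 6 passed, against 2.85% higher and 2.35% lower over all genes. The zinc finger gene ZAT10 was the 1 of the 6 that was higher in WT III relative to WT I (1.38), against 12.0% of all genes. XTH23 (AT4G25810, listed as XTR6) was at 15.42, 12.43 and 9.86 FPKM and varied little.

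XTH24 (AT4G30270), first known as the meristem gene MERI-5 and also as a senescence-associated gene, had 107.55 FPKM in WT I, 580.14 in WT II and 553.42 in WT III. It was higher by 2.42 in WT II relative to WT I, and ranked 148th of all genes in WT II, against 1181st in WT I. The ratio of XTH24 to XTH4 was 0.151 in WT I, 2.21 in WT II and 4.39 in WT III. XTH16 (AT3G23730) went the opposite way, with 132.83 FPKM in WT I and only 5.11 in WT II and 4.83 in WT III, a log2 difference of -4.45 for WT II over WT I. XTH15 (AT4G14130), a member induced by shade, was at 54.36, 13.65 and 27.92 FPKM, and like XTH9 it was lowest in WT II.

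XTH17, XTH18, XTH19 and XTH20 form a close branch of group II, known from roots, and XTH19 and XTH20 are known from the healing of cut stems. XTH18 (AT4G30280) had 67.22 FPKM in WT I, 35.74 in WT II and 9.81 in WT III, and only its second step passed 2-fold (-1.76). XTH19 (AT4G30290) was at 32.07, 2.39 and 0.13 FPKM, lower by -3.29 and then by -1.58. XTH17 (AT1G65310) was at 1.15 and 0.1 FPKM and then listed at 0, and XTH20 (AT5G48070) was listed at 0 in all 3 WT segments. Because these coding sequences are alike and the labels do not say how shared reads were divided among them, the level of each is uncertain.

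XTH24, XTH18 and XTH19 lie side by side on chromosome 4 with no other protein-coding gene between them, and their levels parted along the stem. XTH24 was 1.60 times as high as XTH18 in WT I, 16.2 times in WT II and 56.4 times in WT III. A second cluster on chromosome 5 holds XTH12 (AT5G57530), XTH13 (AT5G57540), XTH25 (AT5G57550) and XTH22. Next to the highly expressed XTH22, the other 3 were nearly silent in the WT stem. XTH25 did not exceed 0.1 FPKM and XTH12 did not exceed 0.52 FPKM in any WT segment, and XTH13 was listed at 0 in every library. XTH14 (AT4G25820), the neighbour of XTH23, was listed at 0 in every library too. XTH21 (AT2G18800), with at most 0.05 FPKM, and XTH26 (AT4G28850), a gene known from root hairs, with at most 0.26 FPKM over the 4 libraries, complete the low members.

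In group III, the 4 members higher in WT II relative to WT I were XTH27, XTH29, XTH30 and XTH31, where 9.88% of all genes were higher. XTH29 reached 1 FPKM in WT II alone, so its call follows from the filter, and XTH30 lay at the threshold. XTH27 (AT2G01850, listed as EXGT-A3), known from the formation of tracheary elements in leaf veins, had 26.67 FPKM in WT I, 146.43 in WT II and 102.01 in WT III, and the difference of WT II over WT I was 2.41. XTH30 (AT1G32170) was at 72.13, 146.51 and 80.61 FPKM, just past 2-fold at the first step (1.01) and within it between WT III and WT I (0.16). Its drop between WT II and WT III of -0.85 reached -1.06 under median-of-ratios scaling. XTH28 (AT1G14720), known from the growth of stamen filaments, was at 22.89, 31.65 and 43.66 FPKM, rising in order without passing 2-fold.

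The hydrolase branch of XTH31 and XTH32 was split by level. XTH32 (AT2G36870) had 121.83 FPKM in WT I, 128.37 in WT II and 69.85 in WT III, so that its level held over the first step. XTH31 (AT3G44990), whose hydrolase activity is established, was low at 0.35, 2.66 and 4.01 FPKM and was higher in WT III than in WT I by 1.89. Among the group III members outside that branch, XTH29 (AT4G18990) was listed at 0 in WT I. It was at 1.76 and 0.82 FPKM in WT II and WT III. XTH33 (AT1G10550), a predicted membrane-bound member, was at 1.79, 0.92 and 0.15 FPKM, and was lower in WT III than in WT I by -1.28.

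**Figure D2:**
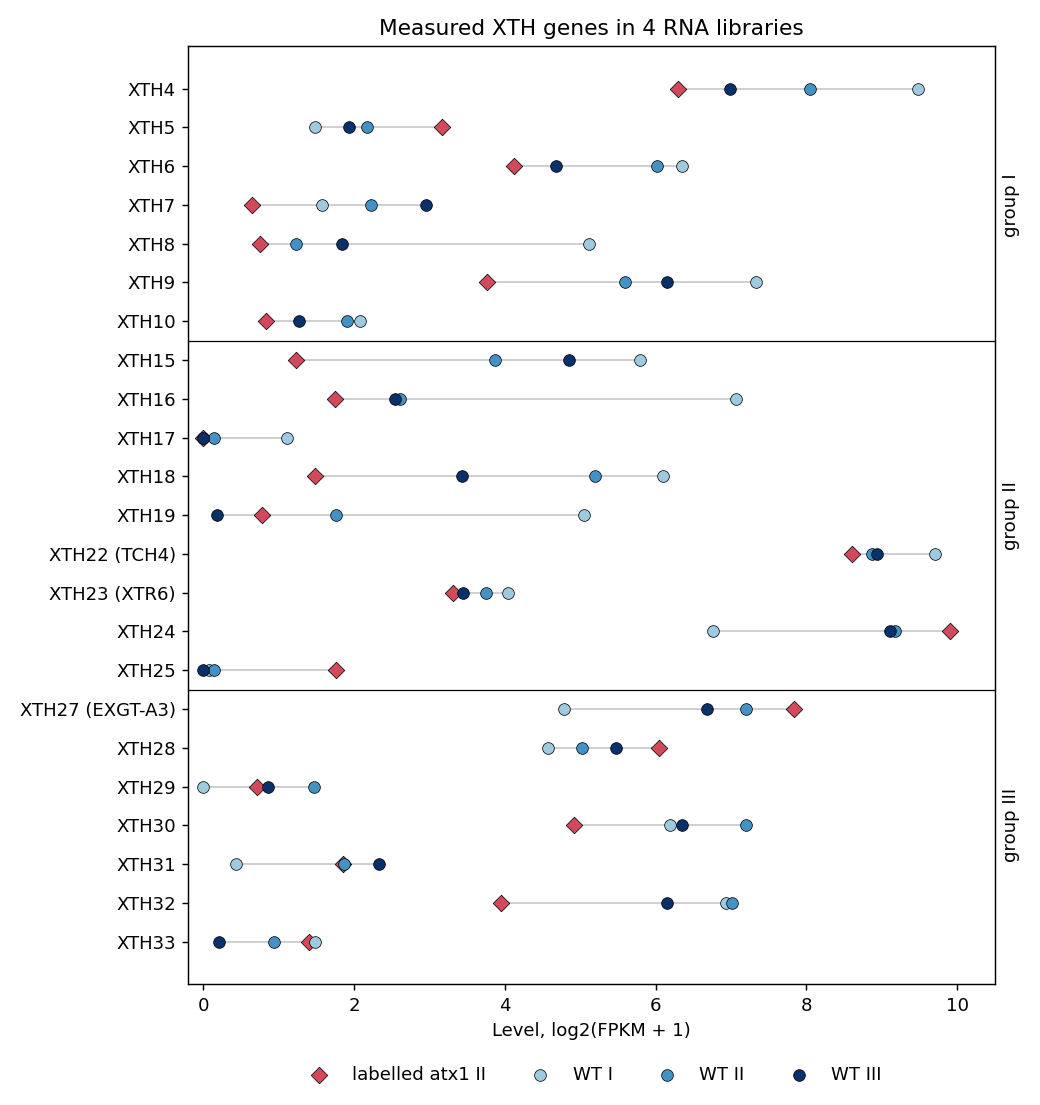
Each row is a measured XTH gene and each point its level in 1 library as log2(FPKM + 1), with the library labelled atx1 II as a diamond and WT I, II and III as circles from light to dark. For 13 of the 23 members the diamond lies left of all 3 circles, as for XTH15 and XTH32, and for 5 it lies right of them, as for XTH24 and XTH27.

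Between WT III and WT II, 19 of the 23 measured members lay within 2-fold. None was higher by at least 2-fold and 4 were lower, namely XTH4, XTH6, XTH18 and XTH19 (median -0.24), against 2.85% higher and 2.35% lower over all genes (median 0.19). XTH15 lay at the threshold with 0.98. Over the whole WT stem 9 members fell in order from I through II to III, against 12.9% of all genes, and 3 rose in order, XTH7, XTH28 and XTH31, against 25.7% of all genes. The highest WT value lay in segment I for 13 members, in II for 7 and in III for 3. Over all measured genes it lay in I for 44.1%, in II for 16.9% and in III for 38.7%. XTH17, also among those that fell in order, and XTH29 reached 1 FPKM only in WT I and WT II, respectively. Where their highest value lay thus follows from the filter. XTH25 counts for segment II on 0.1 FPKM, against 0.05 in WT I, values that rest on 1 or a few fragments. Under median-of-ratios scaling XTH22 joined the members that fell in order, which made 10, against 18.0% of all genes under that scaling. Rising in order stayed at 3 members, against 20.7% of all genes.

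**Figure D3:**
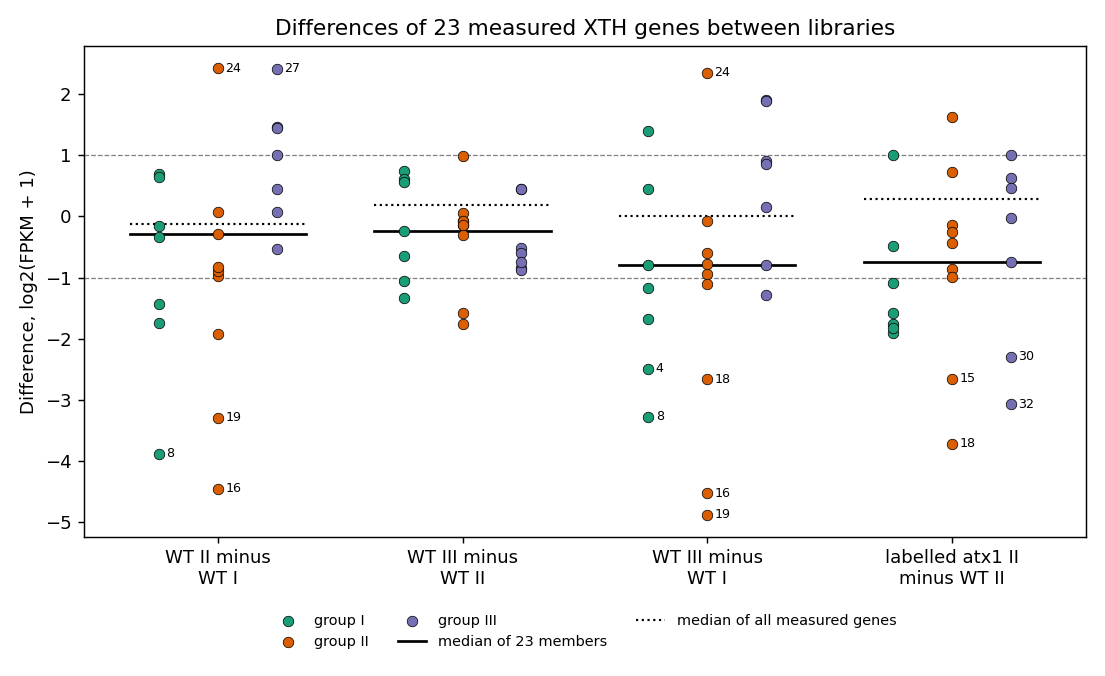
Points give the log2(FPKM + 1) difference of each of the 23 measured XTH genes in 4 comparisons between single libraries, coloured by family group, with the family number beside those past 2 on this scale. Solid bars are the median of the members, dotted bars that of all measured genes, and dashed lines mark 2-fold. In the last comparison the median of the members was -0.75 and that of all genes 0.28.

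In segment II, XTH4, XTH6, XTH9, XTH15, XTH18, XTH30 and XTH32 were lower in the library labelled atx1 II than in WT II. The leading members of that library, XTH24, XTH22 and XTH27, lay within 2-fold of WT II. Of the 23 measured members 3 were higher by at least 2-fold and 9 lower, with a median log2 difference of -0.75. WT II also stands in the comparison with WT I above. Over all measured genes 14.1% were higher and 8.33% lower, with a median of 0.28. In group I, 5 of 7 were lower and 1 higher (median -1.58), in group II 2 of 9 lower and 1 higher (median -0.44), and in group III 2 of 7 lower and 1 higher (median -0.02). Scaling by the median of ratios shifted the median of all genes by -0.25. It left 1 member higher, XTH25, and 11 lower, with XTH16 and XTH19 added.

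The 2 members with the largest drops were XTH18 and XTH32. XTH18 was at 1.8 FPKM in the library labelled atx1 II, against 35.74 in WT II, a log2 difference of -3.71. XTH32 was at 14.43 FPKM, against 128.37 in WT II (-3.07), and was below each of the 3 WT segments. XTH15 was at 1.34 FPKM, against 13.65 in WT II (-2.65). Another group III gene, XTH30, which has been linked to salt tolerance, was at 29.26 FPKM, against 146.51 in WT II (-2.29). The lower members thus came from all 3 groups.

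In group I, XTH4 was at 77.43 FPKM in the library labelled atx1 II, against 262.95 in WT II (-1.75). XTH6 was at 16.38 FPKM, against 63.87 in WT II (-1.90), and XTH9 at 12.61, against 47.26 in WT II (-1.83). These were the 3 abundant members of that group in WT II, and all were lower. Among the low ones, XTH7 was at 0.56 FPKM, against 3.66 in WT II (-1.58), and XTH10 at 0.78, against 2.76 in WT II (-1.08). XTH8 was at 0.69 FPKM, against 1.35 in WT II, within 2-fold.

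The members with higher calls were low ones or lay near the threshold. XTH5 was at 7.99 FPKM in the library labelled atx1 II, against 3.49 in WT II, and XTH28 at 64.91, against 31.65 in WT II. Their log2 differences of 1.0 and 1.01 became 0.76 and 0.73 under median-of-ratios scaling, where neither passed 2-fold. XTH25 was at 2.4 FPKM, against 0.1 in WT II (1.63), a WT value that rests on a few fragments. It reached 1 FPKM in the library labelled atx1 II alone, so its call follows from the filter. Its neighbour XTH22 was at 389.87 FPKM, against 467.51 in WT II (-0.26).

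XTH24 was at 959.01 FPKM in the library labelled atx1 II, against 580.14 in WT II, a difference of 0.72 that stayed within 2-fold. It alone made up 52.5% of the family's FPKM there, against 29.6% in WT II. XTH27 was at 227.37 FPKM, against 146.43 in WT II (0.63). Both were above all 3 WT segments, and XTH27 was higher by at least 2-fold than WT III, where it was at 102.01 FPKM. XTH24 and its neighbour XTH18 stood 533 to 1 in the library labelled atx1 II, against 16.2 to 1 in WT II.

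XTH33 was studied earlier as a gene that ATX1 represses. It was at 1.64 FPKM in the library labelled atx1 II, against 1.79, 0.92 and 0.15 FPKM in WT I, II and III. The difference from WT II was 0.46 and within 2-fold, and the level lay inside the range of the WT segments. XTH16 was at 2.37 FPKM, against 5.11 in WT II (-0.86), XTH19 at 0.71, against 2.39 in WT II (-0.99), and XTH23 at 8.91, against 12.43 in WT II (-0.44). XTH31 was at 2.62 FPKM, against 2.66 in WT II, and XTH29 at 0.64, against 1.76 in WT II. XTH17 was listed at 0, against 0.1 FPKM in WT II. None of these 6 passed 2-fold against WT II on the log2(FPKM + 1) scale. As plain ratios of FPKM, WT II was 2.16, 3.37 and 2.75 times as high for XTH16, XTH19 and XTH29. With a pseudocount of 0.1, XTH16, XTH17, XTH19 and XTH29 were called lower. XTH16 and XTH19 were also lower under median-of-ratios scaling. Of the members under 1 FPKM, XTH12 was at 0.53 FPKM, against 0.52 in WT II, and XTH20 was at 0.04 FPKM and listed at 0 in WT II.

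**Figure D4:**
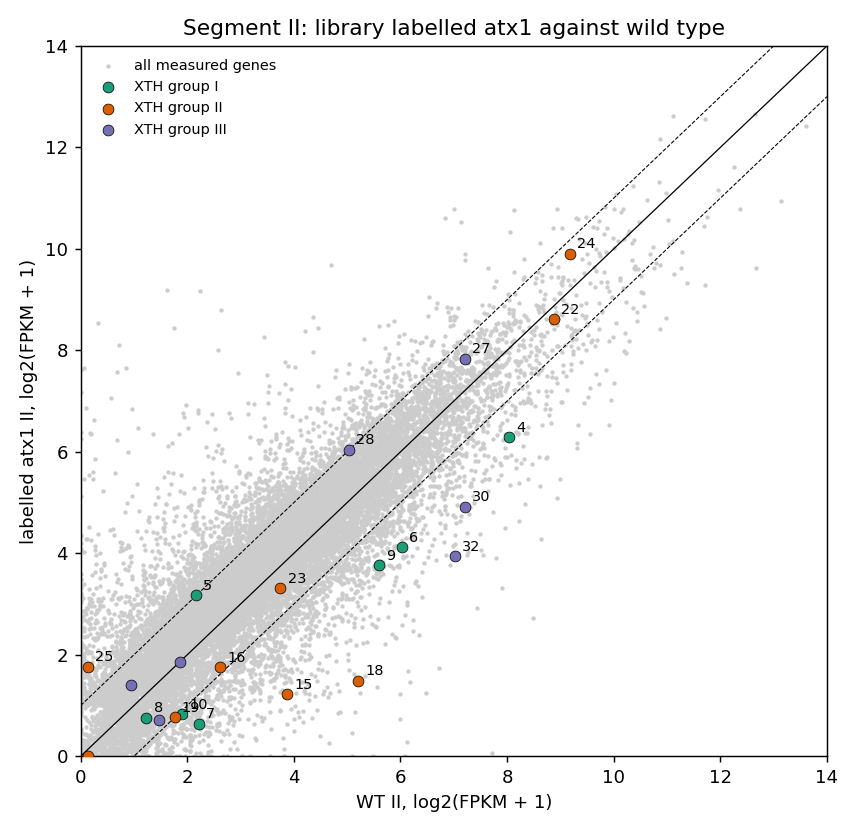
Levels in segment II as log2(FPKM + 1), with the library labelled atx1 II on the y axis and WT II on the x axis. Grey points are the 18858 measured genes, coloured points the measured XTH genes by group, with family numbers for those at 10 FPKM or more in some library or past 2-fold, the solid line equality and the dashed lines 2-fold. XTH18, XTH32, XTH15 and XTH30 lie farthest below the lower dashed line among the members.

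Against each of the 3 WT libraries in turn, 5 members were lower by at least 2-fold in the library labelled atx1 II, namely XTH9, XTH15, XTH18, XTH30 and XTH32, and 2 were higher, XTH5 and XTH25. Over all measured genes 3.42% were lower and 6.28% higher by the same rule. XTH4 and XTH6 did not pass against WT III, where they were at 126.15 and 24.56 FPKM. Without a threshold, 13 members lay below all 3 WT libraries and 5 above them, against 23.8% and 39.9% of all genes. XTH25 is among those 5, again through the filter.

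Clock genes moved between the same libraries. CCA1 was at 121.08 FPKM in the library labelled atx1 II, against 1.0, 2.91 and 1.62 FPKM in WT I, II and III, and LHY at 108.31, against 1.53, 2.8 and 1.64 FPKM. Of the 10 genes of the clock list, 5 were higher and 1 lower against WT II. Their part in the XTH differences was not tested. Secondary wall markers were lower for 6 of 8. None of the 5 epidermis markers, the 4 phloem markers or the 5 markers of dividing cells passed 2-fold against WT II. Their median log2 differences were -0.14, -0.53 and -0.54, against 0.28 over all genes, where 14.1% were higher and 8.33% lower. The phloem genes SEOR1 and SEOR2 lay near the threshold, at -0.91 and -0.95. These markers were not recounted under median-of-ratios scaling, which shifted the median of all genes by -0.25.

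Other genes of xyloglucan metabolism were followed beside the family. Of 20 genes 19 were measured. Between WT II and WT I none was higher and 10 were lower (median -1.11), against 9.88% higher and 16.1% lower over all genes. Between WT III and WT II 1 was higher and none lower, against 2.85% and 2.35% of all genes. That gene, BGLC1, did not pass 2-fold under median-of-ratios scaling. Between the library labelled atx1 II and WT II 3 were higher and 4 lower (median -0.35), against 14.1% and 8.33% of all genes. The 4 breakdown enzymes were all lower in WT II than in WT I. XYL1, the xylosidase that trims xyloglucan fragments, was at 9.49 FPKM in WT II, against 100.17 in WT I. The galactosidase gene BGAL10 was at 2.54 FPKM in WT II, against 33.08 in WT I, and the glucosidase gene BGLC1 at 9.42, against 56.11 in WT I. Among the synthesis genes, 2 of the 5 backbone genes and 4 of the 10 measured side chain genes were lower in WT II, and none was higher. The backbone synthase CSLC4 was at 112.97 FPKM in WT II, against 182.96 in WT I, within 2-fold. CSLC12 was at 1.8 FPKM, against 12.1 in WT I, and CSLC8 at 3.63, against 17.12 in WT I.

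In the library labelled atx1 II, 3 of the 4 breakdown genes were higher than in WT II and none was lower. Of the 5 backbone genes, 3 were lower and none was higher. Over all genes 14.1% were higher and 8.33% lower. The fucosidase gene AXY8 lay within 2-fold (-0.38), as did the backbone genes CSLC6 (-0.42) and CSLC8 (-0.33). BGLC1 was at 74.43 FPKM, against 9.42 in WT II, and XYL1 at 22.52, against 9.49 in WT II. BGLC1 was also above its 56.11 FPKM in WT I. XYL1 stayed below its 100.17 FPKM in WT I, and BGAL10, at 8.96 FPKM, below its 33.08 there. CSLC4, by level the leading backbone synthase gene, was at 29.41 FPKM, against 112.97 in WT II. CSLC5 was at 5.25, against 12.16 in WT II (-1.07), and CSLC12 at 0.34, against 1.8 in WT II (-1.06), so both lay near the threshold. Of the 10 measured genes for side chains 1 was lower and none higher, and the xylosyltransferase gene XXT1 was at 62.67 FPKM, against 100.03 in WT II. Under median-of-ratios scaling 2 of the 19 measured genes were higher and 4 lower, with XYL1 no longer past 2-fold.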

How the data were processed

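RNA was sequenced from 4 of the 10 samples of the series, with 1 library each. The other 6 samples, of chromatin, were not analysed here. The authors deposited FPKM per gene to 2 decimals, per the file headers. Trimmomatic, HISAT, Bowtie2, RSEM and the build TAIR10 are named without versions or roles, per the submitters' processing notes. How reads common to similar XTH genes were assigned is not stated there.

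Members were matched by locus, and all 33 names were found in the RefSeq table of TAIR10.1, which also gave gene order. Genes with at least 1 FPKM in at least 1 library were compared as log2(FPKM + 1), with 2-fold as the threshold (Python 3.11.15, pandas 2.3.3, numpy 2.4.6), a step checked on simulated data. Depth was estimated from the whole-fragment steps of values below 1 FPKM of genes 250 to 900 bp long, where 71.1% to 73.4% lay within 0.15 of a whole number. That fit used the same values, so it is approximate.

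The members, lists and comparisons were chosen with earlier results of these data known. All listed members are named. Of the other lists, genes with large differences and at least 10 FPKM in the higher library are named, beside ATX1, CCA1 and LHY. TCH3, ZAT10, CER6, PI, CSLC4 in the stem comparison, CSLC6, CSLC8, AXY8, XXT1, SEOR1 and SEOR2 were chosen after their values were seen. So were CSLC12 and BGAL10 in the comparison of the library labelled atx1 II. Alternatives were pseudocounts, filters, scalings, thresholds and the WT library used. Protein and promoter sequences were not used here.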

Additional observations from a re-analysis of the deposited data

How the results depend on the processing

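With 1 library per group no replicate could be left out. No paired analysis was possible because no group has more than 1 library. Of 137 alternatives for counts, sums and medians over the family, 115 moved by no more than 1.5-fold, and 22 by more. Of 200 for single genes and other lists, 179 did so and 21 did not, and no difference past 2-fold changed sign. Between WT II and WT I, the count of higher members was 2 with a pseudocount of 5, 3 with a filter at 5 FPKM and 2 at a 4-fold threshold, and that of lower members 3 at 4-fold. Between WT III and WT II, higher members numbered 1 with a pseudocount of 0.1, 1 with values rescaled to TPM and 3 at 1.5-fold, and lower members 8, 9 and 0 with a pseudocount of 0.1, at 1.5-fold and at 4-fold. Between WT III and WT I, higher members numbered 2 with a pseudocount of 5 and 1 at 4-fold, and lower members 14 at 1.5-fold and 5 at 4-fold. The median there was -0.07 without a filter, since this adds 8 members near 0. Between the library labelled atx1 II and WT II, higher members numbered 0 with a pseudocount of 5, 1 under the median of ratios, 5 at 1.5-fold, 0 at 4-fold and 6 against WT I, and lower members 4 at 4-fold. The median there ran from -0.33 to -1.10 over the alternatives other than dropping the filter, which gave -0.26. The family sum of WT I was 1650.2 FPKM without XTH22, a choice made after seeing the data, as were filtering on the compared libraries alone and leaving out XTH24. The median of ratios moved the median of all genes by 0.15 for WT II over WT I, -0.18 for WT III over WT II and -0.25 for the library labelled atx1 II over WT II. Depth limits members under about 0.1 FPKM, where 1 fragment decides a ratio.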
